A study of Mus musculus with 2 samples.

Results

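The genes of the nuclear receptor superfamily were examined in mouse heart with and without the Mediator subunit Med1. A list of 46 receptor genes was matched by gene symbol to the deposited expression values, and each of the 46 was found on 1 row among 22882 gene symbols. The control group carried the floxed Med1 allele on both chromosomes and no deletion (Med1fl/fl). In csMed1-/- mice the same allele was deleted by Cre recombinase under the α-MyHC promoter, which is active in cardiomyocytes, so other cell types of the heart keep the floxed gene. All mice were 23 days old, untreated, of mixed sex and on a C57BL6/J background. RNA from the hearts of 5 mice was pooled for each genotype, and 1 poly(A)-selected library was sequenced from each pool. Levels are FPKM, in which sequenced fragments are normalized for transcript length and library size, as computed by the authors. With 1 library per genotype there were no replicates, so no difference below was tested, no error can be attached to a value, and every ratio compares a pair of pooled libraries and not the genotypes.

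Nuclear receptors are transcription factors, many of which bind a small fat-soluble ligand such as a hormone, a retinoid, a fatty acid or an oxysterol. Most bind DNA at copies of a short hexamer, either as dimers of themselves or with a retinoid X receptor as the partner, and they recruit coactivators or corepressors to the genes they bind. Med1 is a subunit of the Mediator complex and carries LXXLL motifs through which many ligand-bound receptors contact Mediator and RNA polymerase II. In heart the PPAR and estrogen-related receptors are known for their control of fatty acid oxidation and mitochondrial genes, and the thyroid hormone receptors for their control of contractile and calcium-handling genes.

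Med1 itself had 3.38 FPKM in the control library and 0.412 FPKM in the csMed1-/- library, a ratio of 0.122. The FPKM of all rows summed to 780366 in control and to 716365 in csMed1-/-. The absolute depth is unknown, but among the lowest values the most frequent ratio was 0.722, and from this step a control fragment weighed 1.39 times a csMed1-/- fragment, the sign of a deeper csMed1-/- library, provided that only mapped fragments set the scale. Cell type markers differed between the libraries. Of 10 cardiomyocyte markers that could be compared, 6 were lower past 2-fold and 0 higher, and their summed level was 60655 FPKM in control and 24870 in csMed1-/-. A further cardiomyocyte marker, Actc1, was listed at 0 in control and at 9189 FPKM in csMed1-/- and entered neither the ratio nor the sum, since a listed 0 for a gene so abundant in the other library can be a failed estimate. Fibroblast markers went the other way, with 5 of 9 higher and 1 lower and a summed level of 520 FPKM in control and 1238 in csMed1-/-. Of 10 endothelial markers 3 were lower and 2 higher, with a median log2 ratio of -0.37, and their sum, 602 FPKM in control and 969 in csMed1-/-, was 545 and 479 without Cldn5. Of 7 macrophage markers 0 were lower and 1 higher, with a median log2 ratio of -0.19, and their sum, 166 and 132 FPKM, was 49.9 and 63.9 without Lyz2. Of 8 adipocyte markers, Lep, Retn, Cfd and Ucp1 were listed at 0 in both libraries, and none of 8 lymphocyte markers reached 1 FPKM. In RNA of whole heart, fewer cells of a type and less RNA per cell cannot be told apart, and this holds for every receptor below. The part that these shifts in markers have in the receptor ratios was not tested.

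Of the 46 receptors, 21 reached 1 FPKM in control heart and 19 in csMed1-/- heart, with 18 above that level in both. At 10 FPKM or more stood 15 receptors in control and 14 in csMed1-/-. At the other end, 24 receptors were below 1 FPKM in both libraries, and 4 of these, Nr1i2, Pgr, Nr2e1 and Nr2e3, were listed at 0 in both. The 3 most abundant receptors of control heart were Esrra (127 FPKM), Nr1d1 (114 FPKM) and Thra (79.0 FPKM), each above at least 88.8% of the genes compared. A ratio was formed where neither library was at 0 and at least 1 of them reached 1 FPKM, which left 22 receptors and 10489 genes in all. The threshold was the 2-fold difference that the study states, without the false discovery cutoff that the study also applied, so the counts are not those of the study. By it 7 of these 22 receptors were lower in csMed1-/- (31.8%), against 18.0% of all genes compared. At the same threshold 2 of the 22 were higher (9.09%), against 13.6% of all genes. The other 13 lay within 2-fold, 8 of them below a ratio of 1 and 5 above, and for Thra, Rxrb, Nr1d1 and Nr2f6 the side of 1 turned with the scaling of the libraries, as it did for Rara when ratios were centred within bins of GC content. The median log2 ratio of the 22 receptors was -0.38, and that of all genes compared was -0.07. Since 3 receptors passed the filter through control alone (Rarb, Nr1d2 and Nr3c2) and 1 through csMed1-/- alone (Nr4a3), the 18 receptors at 1 FPKM or more in both libraries were also counted. Of these 5 were lower and 2 higher, beside 14.7% lower and 11.3% higher among the 9160 genes of all kinds above the same level.

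**Figure D1:**
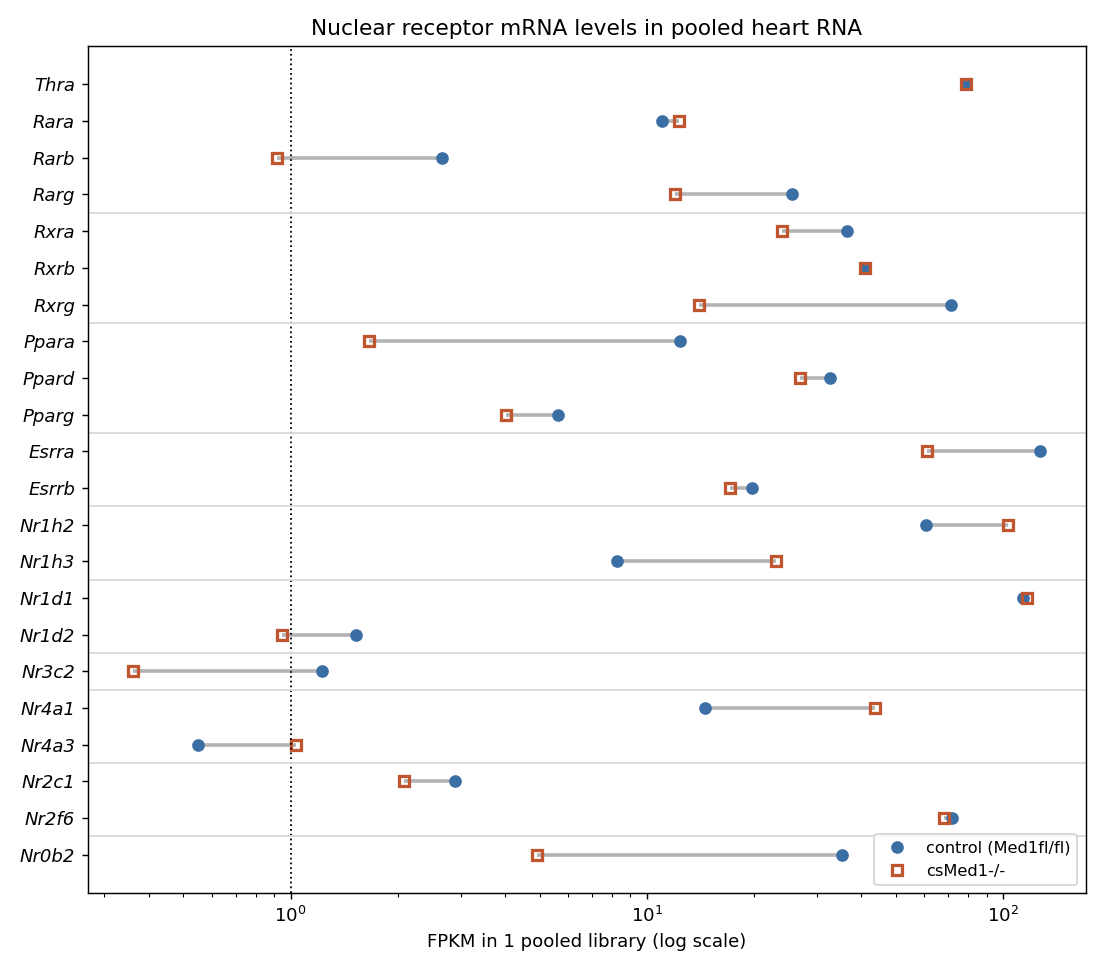
FPKM (log scale) of the 22 nuclear receptor genes that passed the filter, with filled circles for the control library, open squares for the csMed1-/- library, grey lines joining the pair, rows grouped by receptor class and a dotted line at 1 FPKM. Ppara, Rxrg and Nr0b2 show the longest lines toward lower csMed1-/- values, Nr4a1 and Nr1h3 the longest toward higher ones, and the symbols of Thra, Rxrb and Nr1d1 nearly coincide.

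The thyroid hormone receptors were represented by a single abundant gene. Thra, which encodes thyroid hormone receptor α, the main form of the heart, stood at 79.0 FPKM in control and at 78.7 FPKM in csMed1-/-, a ratio of 0.995. Thrb, the β form, stood at 0.324 and 0.173 FPKM. Thra thus made up 99.6% of the summed thyroid hormone receptor level in control and 99.8% in csMed1-/-. Thra (chromosome 11, 98740638 to 98769006, plus strand, GRCm38) overlaps Nr1d1 on the opposite strand in 263 exonic bases. The libraries were directional, but whether the counting used strand is not given in the sources used here, so reads from those bases cannot be assigned to either gene with certainty. Among genes that supply the hormone to cells, Slc16a10, a transporter, had 5.62 FPKM in control and 3.97 in csMed1-/-. The deiodinases Dio1, Dio2 and Dio3, which activate or inactivate the hormone, were all below 1 FPKM in both libraries.

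Genes known to respond to thyroid hormone did not share the near-equal level of Thra. Of 16 such genes listed, 14 were found by symbol and compared. Of these 10 were lower past 2-fold, 1 was higher and 3 lay within, with a median log2 ratio of -2.04. The lowest ratios belonged to Atp2a2, the calcium pump of the sarcoplasmic reticulum (3585 FPKM in control, 238 in csMed1-/-), and Kcne1, a potassium channel subunit (16.6 and 1.16 FPKM). Ucp2, a mitochondrial carrier, was the gene that was higher, with 302 and 723 FPKM. Ryr2 is also on the cardiomyocyte marker list, so the lists are not independent.

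Among the retinoic acid receptors, the α form was near-equal in the libraries while the β and γ forms were lower. Rara had 11.0 FPKM in control and 12.3 in csMed1-/-, a ratio of 1.12. Rarg, at 25.6 FPKM the most abundant of the 3 in control, had 12.0 FPKM in csMed1-/-, a ratio of 0.467 (log2 -1.10). Rarb, itself a classical retinoic acid target, had 2.66 and 0.917 FPKM, a ratio of 0.345. With this the share of Rara in the summed retinoic acid receptor level was 28.1% in control and 48.9% in csMed1-/-, and that of Rarg 65.2% and 47.5%. Rarb (chromosome 14, 16430839 to 16819156, minus strand) shares 1793 exonic bases with Top2b on the opposite strand, which stood at 0.419 and 1.02 FPKM. The vitamin D receptor gene Vdr was below 1 FPKM in both libraries (0.234 and 0.456 FPKM).

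Retinoid handling genes differed in both directions, 3 lower and 2 higher of 9 compared. Cyp26b1, which degrades retinoic acid, had 20.0 FPKM in control and 1.68 in csMed1-/-, a ratio of 0.0837. Aldh1a1, a retinaldehyde dehydrogenase, was among the higher genes with 3.98 and 16.3 FPKM. Of 6 retinoic acid target genes compared, 3 were lower and 2 higher, and Cyp26b1 and Rarb belong to that list as well. Tgm2, a transglutaminase, was among the higher genes on it (165 and 567 FPKM).

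The retinoid X receptors, the shared partners of many other receptors, differed most in make-up. Rxrg, the form enriched in striated muscle, had 71.7 FPKM in control and 14.0 in csMed1-/-, a ratio of 0.195 (log2 -2.36), lower than 96.5% of the genes compared. Rxra had 36.4 and 24.0 FPKM, a ratio of 0.658 that lies within 2-fold. Rxrb had 40.9 and 41.1 FPKM, a log2 ratio of 0.01. The summed level of the 3 genes was 149 FPKM in control and 79.1 FPKM in csMed1-/- (ratio 0.530). In control Rxrg was the most abundant of them, at 48.1% of the sum, and in csMed1-/- it was the least abundant, at 17.7%, while Rxrb went from 27.5% to 52.0%. The gene lies on chromosome 1 from 167598384 to 167639623, on the plus strand.

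The PPAR genes encode receptors for fatty acids, and the α form had the lowest ratio of all 22 receptors. Ppara had 12.4 FPKM in control and 1.66 in csMed1-/- (log2 ratio -2.90). Ppard, the δ form and the most abundant of the 3, had 32.7 and 27.0 FPKM, a ratio of 0.825. Pparg, best known from adipocytes, had 5.64 and 4.02 FPKM, a ratio of 0.713. Ppara therefore held 24.4% of the summed PPAR level in control and 5.08% in csMed1-/-, and Ppard 64.5% and 82.6%. The adipocyte marker Fabp4, which endothelial cells also express, was at 182 and 143 FPKM, and the other 7 adipocyte markers were each under 1 FPKM in both libraries. Ppara lies on chromosome 15 from 85734983 to 85802819, on the plus strand.

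Of 25 PPARα target genes compared, 12 were lower past 2-fold and 1 higher, with a median log2 ratio of -0.95 and 21 of 25 below a ratio of 1. Acadm, the medium-chain acyl-CoA dehydrogenase, had the lowest ratio (251 FPKM in control, 36.4 in csMed1-/-), followed by Lpl, lipoprotein lipase (129 and 23.1 FPKM). Angptl4, an inhibitor of lipoprotein lipase and a direct PPAR target, was the exception past 2-fold, at 10.7 FPKM in control and 102 in csMed1-/-, a ratio of 9.45. Txnip was next highest at 169 and 282 FPKM, within 2-fold.

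The estrogen-related receptors bind no known natural hormone and act with the coactivator PGC1α on mitochondrial genes. Esrra (chromosome 19, 6910977 to 6921813, minus strand) was the most abundant receptor of control heart at 127 FPKM and had 61.4 FPKM in csMed1-/-, a ratio of 0.482. Its log2 ratio of -1.05 lies just past the threshold, and 16.9% of all genes compared had a lower ratio. Esrrb had 19.7 and 17.1 FPKM, a ratio of 0.865. Esrrg, the third form, had 0.917 and 0.637 FPKM and did not pass the filter. The family summed to 148 FPKM in control and 79.1 in csMed1-/-, with Esrra at 86.0% and 77.6% of the sum. Esrra shares 73 exonic bases with Trmt112 on the opposite strand, a gene at 73.1 and 95.7 FPKM. Of 21 genes known as targets of these receptors, all 21 had a ratio below 1 and 16 were lower past 2-fold, with a median log2 ratio of -1.24. Kcnj11, a subunit of the ATP-sensitive potassium channel (103 and 16.4 FPKM), and Idh3a of the citric acid cycle (226 and 49.1 FPKM) were lowest, and Mdh2 (2821 and 2354 FPKM) and Atp1b1 (108 and 86.4 FPKM) were highest. That list holds Esrra itself and the cardiomyocyte marker Ckm.

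**Figure D2:**
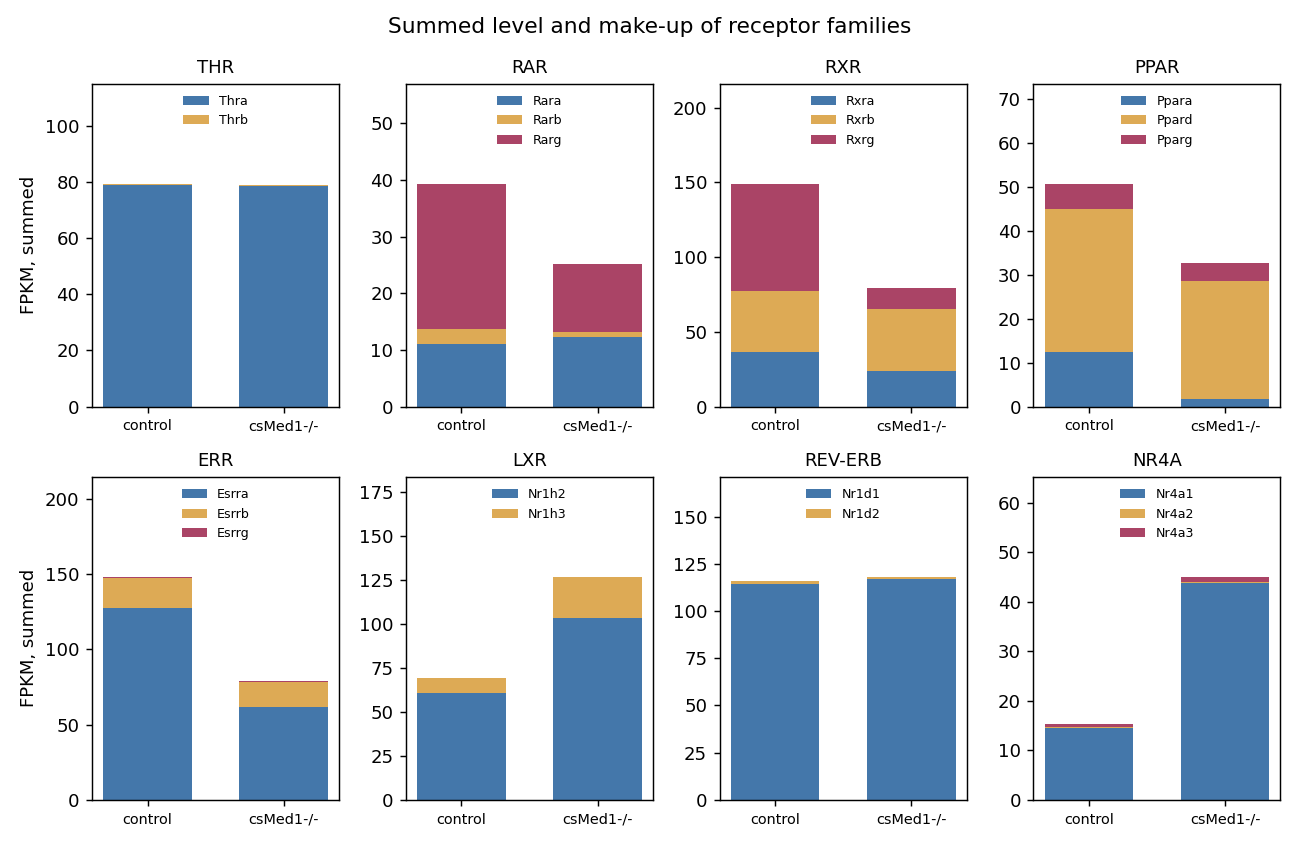
Summed FPKM of 8 receptor families in the control and csMed1-/- libraries, with each bar divided by family member and each panel on its own linear axis from 0. The RXR, PPAR, ERR and RAR bars are shorter in csMed1-/- (ratios 0.530, 0.644, 0.535 and 0.641), the LXR and NR4A bars are taller (1.83 and 2.95), and the THR and REV-ERB bars are of nearly equal height, a near-equality whose sign turns with the scaling of the libraries.

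The liver X receptors, sensors of oxysterols, were the abundant pair with higher levels in csMed1-/-. Nr1h3, which encodes liver X receptor α, stood at 8.24 FPKM in control and 23.1 FPKM in csMed1-/-, a ratio of 2.81 (log2 1.49), and 7.32% of all genes compared had a higher ratio. Nr1h2, the β form, had 60.8 and 103 FPKM, a ratio of 1.70 that does not reach 2-fold. Together they summed to 69.0 FPKM in control and 126 in csMed1-/-. Liver X receptor α is abundant in macrophages, and the direction of the macrophage marker sum given above turned without Lyz2, so the part of macrophages in this ratio was not tested. Of 11 target genes compared, 2 were lower (Scd2 at 7.66 and 2.88 FPKM and Pltp at 103 and 47.6 FPKM) and 8 lay within 2-fold, with a median log2 ratio of -0.09. The gene counted as higher was Nr1h3 itself, which is on the list as its own target, and the next highest was Fasn, the fatty acid synthase, at 9.06 and 15.3 FPKM.

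Receptors of liver and gut were at or near 0. The bile acid receptor gene Nr1h4 had 0.164 and 0.154 FPKM, and the xenobiotic receptor gene Nr1i3 had 0.374 and 0.0566 FPKM. Hnf4a and Hnf4g, master regulators of liver and gut genes, each stood below 0.02 FPKM in both libraries. Nr1i3 shares 3304 exonic bases with Tomm40l on the opposite strand, which was itself at 50.4 and 30.6 FPKM, and without a known strand setting reads of the pair cannot be told apart there.

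Of the clock-linked receptors, the REV-ERB repressors reached 1 FPKM in control and the ROR activators stayed below it in both libraries. Nr1d1, which encodes REV-ERBα, had 114 FPKM in control and 117 in csMed1-/-, a ratio of 1.02, second in abundance only to Esrra in control. Nr1d2, REV-ERBβ, had 1.53 and 0.948 FPKM, a ratio of 0.619. Rora had 0.0627 and 0.188 FPKM and Rorb 0.0352 and 0.0112 FPKM. Of 13 clock genes and REV-ERB or ROR targets compared, 3 were lower and 3 higher. The clock output factors Dbp (90.5 FPKM in control and 13.0 in csMed1-/-) and Hlf (4.90 and 0.856 FPKM) had the lowest ratios. Arntl, the core activator that REV-ERBα represses, had 0.60 and 1.60 FPKM, Nfil3 had 9.41 and 20.0 FPKM, and Per1 had 35.2 and 71.7 FPKM. The hour at which the hearts were taken is not given in the sources used here, and its part in these values was not tested.

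The steroid hormone receptors had low FPKM in both libraries. Nr3c2, the mineralocorticoid receptor gene (chromosome 8, 76899442 to 77245012, plus strand), was the only receptor of its class to reach 1 FPKM, with 1.22 FPKM in control and 0.361 in csMed1-/-, a ratio of 0.295. Nr3c1, which encodes the glucocorticoid receptor, had 0.521 and 0.670 FPKM. Esr1 was at 0.0119 FPKM in control and listed at 0 in csMed1-/-, and Esr2 was at 0.0707 and 0.0761 FPKM. Although Nr3c1 lay below 1 FPKM, 15 of 16 listed glucocorticoid target genes passed the filter, with 6 higher, 1 lower and a median log2 ratio of 0.38. Higher were Cdkn1a (30.5 and 693 FPKM), Lcn2 (3.73 and 70.9 FPKM), Mt2 (92.9 and 900 FPKM), Fkbp5 (6.97 and 28.4 FPKM), Errfi1 (6.12 and 16.1 FPKM) and Per1. Many of these genes also respond to stress and inflammation, and Klf9 (7.85 and 3.12 FPKM), which thyroid hormone induces too, was the lower gene. Of the enzymes that set local steroid levels, Hsd11b1, which regenerates active glucocorticoid, had 3.72 and 7.24 FPKM. Hsd17b4, the peroxisomal enzyme also named D-bifunctional protein, had 35.9 and 10.7 FPKM.

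The NR4A receptors, orphan receptors encoded by immediate early genes, all had higher values in csMed1-/-. Nr4a1 stood at 14.6 FPKM in control and 43.7 FPKM in csMed1-/-, a log2 ratio of 1.58, and 6.62% of all genes compared had a higher ratio. Nr4a3 had 0.549 and 1.03 FPKM, a ratio of 1.88 (log2 0.91), just short of 2-fold. Nr4a2 had 0.118 and 0.223 FPKM, also a ratio of 1.88, but at levels under the filter. Nr4a1 held 95.6% of the summed level in control and 97.2% in csMed1-/-. The NR4A genes are classical targets of the cAMP response element binding protein, and their promoters are shown because the 3 genes had ratios on the same side. The sequences are the 250 bases upstream of a RefSeq start on GRCm38.p6, written 5′ to 3′ on the strand of the gene, from chr15:101266596-101266845 (plus strand), chr2:57124004-57124253 (minus strand) and chr4:48045055-48045304 (plus strand). Capitals mark the core of the cAMP response element, TGACG or its reverse complement CGTCA.
Nr4a1: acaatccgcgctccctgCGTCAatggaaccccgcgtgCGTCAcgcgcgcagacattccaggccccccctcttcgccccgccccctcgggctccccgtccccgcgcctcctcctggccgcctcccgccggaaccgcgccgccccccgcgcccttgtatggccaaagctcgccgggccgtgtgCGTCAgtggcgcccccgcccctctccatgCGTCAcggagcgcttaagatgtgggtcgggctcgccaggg
Nr4a2: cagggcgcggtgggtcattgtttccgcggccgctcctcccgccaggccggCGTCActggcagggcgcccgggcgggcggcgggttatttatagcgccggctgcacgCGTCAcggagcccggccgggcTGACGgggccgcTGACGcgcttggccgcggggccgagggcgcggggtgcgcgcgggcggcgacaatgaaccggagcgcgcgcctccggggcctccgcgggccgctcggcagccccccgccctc
Nr4a3: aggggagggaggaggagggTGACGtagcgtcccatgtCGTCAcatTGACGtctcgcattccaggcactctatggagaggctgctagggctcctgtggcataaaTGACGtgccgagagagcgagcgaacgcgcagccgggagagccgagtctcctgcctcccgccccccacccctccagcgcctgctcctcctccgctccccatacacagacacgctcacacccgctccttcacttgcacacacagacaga

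Each of these genes had a single window among the 63 matched to 42 receptors, each held the core 4 times, and no other receptor window held it as often. In Nr4a1 the copies began at -233, -213, -69 and -40 from the start, in Nr4a2 at -200, -144, -123 and -111, and in Nr4a3 at -231, -213, -205 and -147. Among 32851 RefSeq promoter windows of the same length, 17.8% held the core at least once on either strand and 0.137% held it 4 times or more. Those windows were not matched for GC content, which was 74.4%, 80% and 63.6% in the Nr4a1, Nr4a2 and Nr4a3 windows. The core itself holds the pair CG, so the 0.137% is not the share among windows of like composition. A match describes letters and not binding. The core was also present in promoters of Ppara, which was lower, and of Rara, Rxrb, Esrrb and Nr2c1, which lay within 2-fold, and so was found on both sides of a ratio of 1.

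The small heterodimer partner Nr0b2 had the second lowest ratio of the receptors. This receptor lacks a DNA-binding domain and represses other nuclear receptors, and it is best known as the bile acid induced brake on bile acid synthesis in liver. It had 35.4 FPKM in control and 4.92 in csMed1-/-, a ratio of 0.139 (log2 -2.85), with 2.08% of all genes compared lower still. The gene (chromosome 4, 133553376 to 133556536, plus strand) ranked ninth in abundance among the receptors of control heart. Its relative Nr0b1 was listed at 0 in control and at 0.0104 FPKM in csMed1-/-. The promoters of Nr0b2 (chr4:133553126-133553375, plus strand) and Ppara (chr15:85735526-85735775, plus strand), again 250 bases upstream of a RefSeq start, are shown as those of the receptors with the lowest ratios. Capitals mark an E-box, CACGTG, in Nr0b2 and the core TGACG in Ppara.
Nr0b2: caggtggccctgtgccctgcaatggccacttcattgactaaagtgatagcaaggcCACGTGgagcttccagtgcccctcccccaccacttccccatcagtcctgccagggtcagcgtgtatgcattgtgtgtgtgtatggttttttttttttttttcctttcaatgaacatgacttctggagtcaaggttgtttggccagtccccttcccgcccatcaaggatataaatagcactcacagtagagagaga
Ppara: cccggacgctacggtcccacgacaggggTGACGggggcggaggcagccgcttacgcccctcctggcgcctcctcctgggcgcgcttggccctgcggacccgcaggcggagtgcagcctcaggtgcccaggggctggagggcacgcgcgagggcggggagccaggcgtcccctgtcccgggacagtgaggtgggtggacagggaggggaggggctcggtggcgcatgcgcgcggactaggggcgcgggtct

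The E-box of Nr0b2 began at -195, and 6.02% of all promoter windows held that sequence. The only core in Ppara began at -222. The receptor half-site AGGTCA, on either strand, was found in promoters of 2 of the 7 lower receptors (Rarg and Rxrg), of 0 of the 2 higher ones and of 3 of 12 within 2-fold (Nr1d2, Pparg and Rxra). It was found in 14.0% of all windows. These shares differ in unit, since a receptor counted if any of its windows held the half-site, and Rarg, Rxrg, Pparg and Rxra had several windows each. For Thra no promoter entry was matched.

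The remaining orphan receptors were led by Nr2f6, a COUP-TF relative and repressor, at 72.2 FPKM in control and 68.4 FPKM in csMed1-/-, a ratio of 0.948. It shares 1622 exonic bases with Ocel1 on the opposite strand, a gene at 4.53 and 11.6 FPKM. Nr2c1, testicular receptor 2, had 2.90 and 2.09 FPKM, a ratio of 0.719. Below 1 FPKM in both libraries were the COUP-TF genes Nr2f1 (0.570 and 0.191 FPKM) and Nr2f2 (0.664 and 0.492 FPKM), the latter an atrial and venous identity factor. Nr2c2 had 0.213 and 0.243 FPKM and shares 4590 exonic bases with Mrps25 on the opposite strand. Nr5a1, Nr5a2 and Nr6a1, known from steroidogenic tissue, liver and germ cells, were each below 0.2 FPKM.

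**Figure D3:**
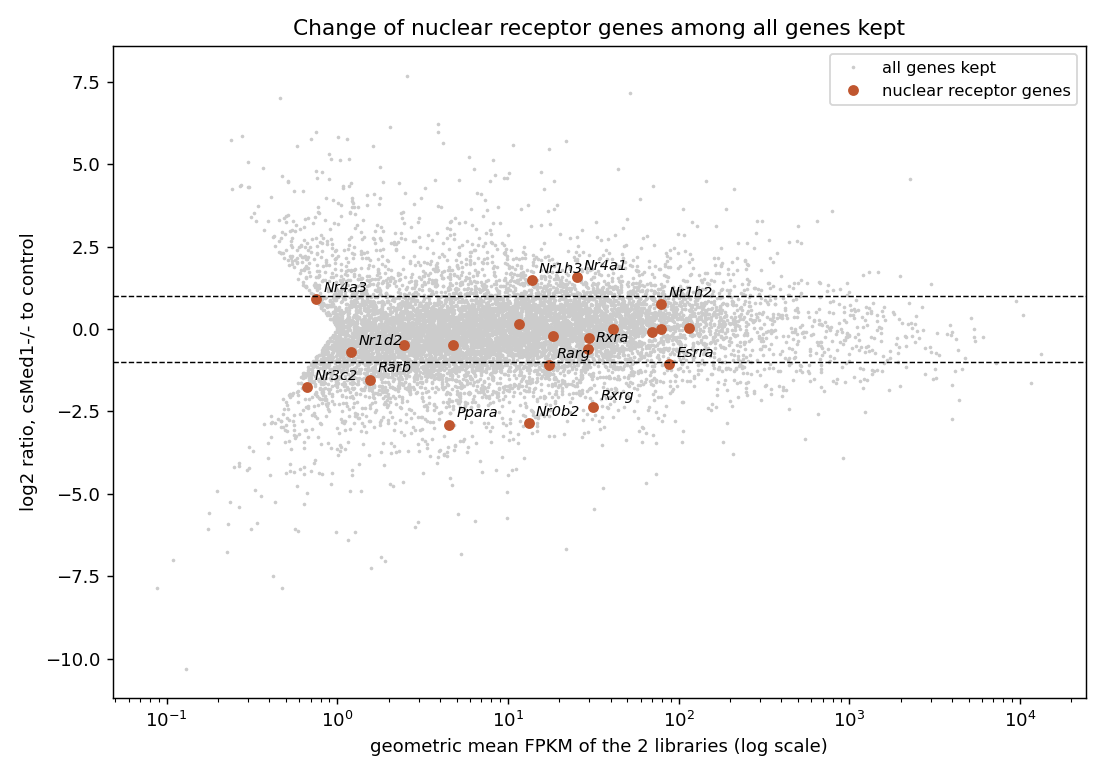
Log2 ratio of csMed1-/- to control FPKM against the geometric mean FPKM of the libraries (log scale) for the 10489 genes compared (grey) and the 22 nuclear receptor genes (colored), with dashed lines at 2-fold. Ppara, Nr0b2 and Rxrg lie lowest among the receptors (log2 -2.90, -2.85 and -2.36), Nr4a1 and Nr1h3 lie highest (1.58 and 1.49), and all 5 sit inside the cloud of other genes.

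Of 12 receptor coactivators compared, 3 were lower and 0 higher, with a median log2 ratio of -0.25, beside 18.0% lower and 13.6% higher among all genes. The lower ones were Ppargc1a, which encodes PGC1α (4.41 and 0.953 FPKM), Ppargc1b, which encodes PGC1β (4.87 and 1.76 FPKM), and Ncoa1, a p160 coactivator (4.08 and 1.98 FPKM). Kat2b, an acetyltransferase, had the highest ratio of the list at 2.77 and 3.59 FPKM. None of 6 corepressor genes compared was past 2-fold in either direction, from Sin3a at 3.72 and 2.21 FPKM to Gps2 at 21.8 and 24.5 FPKM. Among 9 chaperones and immunophilins that hold steroid receptors, 1 was lower and 2 were higher. Fkbp4, the immunophilin FKBP52, had 218 and 23.3 FPKM, whereas its relative Fkbp5 had 6.97 and 28.4 FPKM and the inducible Hsp90aa1 had 3.95 and 23.0 FPKM.

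**Figure D4:**
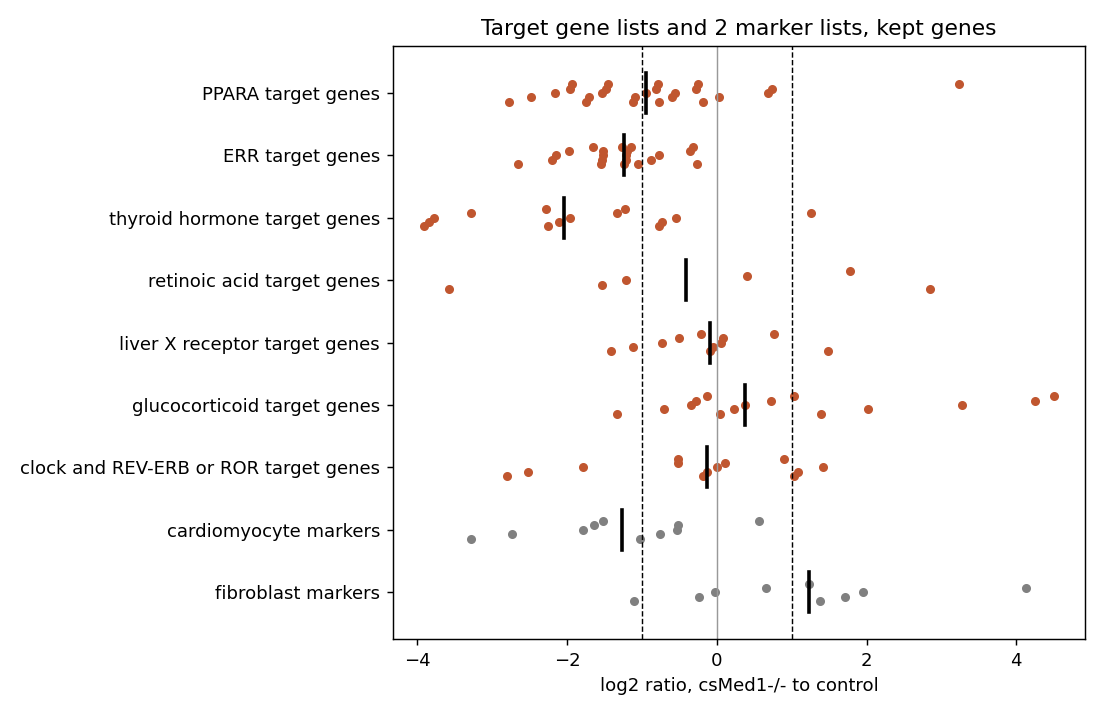
Log2 ratio of csMed1-/- to control FPKM for each compared gene of 7 receptor target lists (colored) and of the cardiomyocyte and fibroblast marker lists (grey), with a black bar at each list's median and dashed lines at 2-fold. The medians of the thyroid hormone, ERR and PPARα target lists are -2.04, -1.24 and -0.95. Those of the retinoic acid, clock and liver X receptor lists are -0.41, -0.13 and -0.09, and that of the glucocorticoid list is 0.38. The cardiomyocyte and fibroblast markers have -1.27 and 1.23, and all genes compared -0.07. Some genes stand on several lists, and the part of cell composition was not tested.

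Receptor level and transcript composition went together. Over the 22 receptors compared, Spearman's rho between control FPKM and the GC content of the longest coding transcript was 0.75, and between control FPKM and transcript length -0.53, where all genes compared with a matched transcript gave 0.29 and -0.29. The points share 1 library, so this is a description. The 22 receptors had a median transcript length of 2837 bases and a median GC content of 57.0%, and the 24 others 4292 bases and 47.5%. The part of length and GC content in the low FPKM of those others was not tested. A value below 1 FPKM is therefore not evidence that a receptor is absent from heart. For the log2 ratio, rho with GC content was 0.30 over the receptors and 0.20 over all genes. In all genes split into 10 bins of GC content, the median log2 ratio ran from -0.36 in the third bin to 0.32 in the highest. The part of GC content in single receptor ratios was examined only by centring within these bins. After it the same number of receptors, 7, was lower past 2-fold and 3 were higher, the added one being Nr4a3 (log2 1.24). Among all genes so centred, 1450 were lower and 1236 higher.

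**Figure D5:**
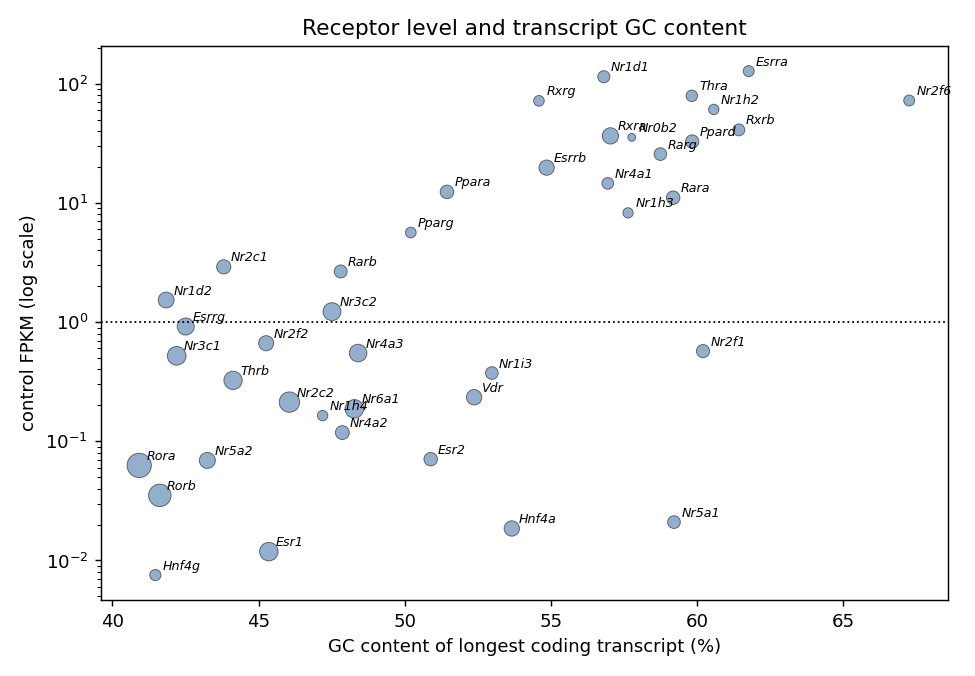
Control FPKM (log scale) against the GC content of the longest coding transcript (percent) for the 41 receptors above 0 in control, with point area proportional to transcript length and a dotted line at 1 FPKM. Receptors at 10 FPKM or more all lie above 50% GC, while Nr5a1, Nr2f1 and Hnf4a combine a high GC content with levels below 1 FPKM.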

How the data were processed

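Heart RNA was pooled by genotype (5 mice each, 1 library each) and sequenced as directional single-end libraries. Alignment by the authors was to mm10 (GRCm38) with TopHat 2.0.8b, and the authors computed the deposited FPKM with Cufflinks and cuffdiff 2.1.1 for UCSC known genes. The library scaling and the strand setting are not given in the sources used here. The submitters' processing notes also name other tools, with no role.

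The 23424 rows were summed by symbol and used as deposited. The ratio of csMed1-/- to control FPKM was formed where neither library was at 0 and at least 1 of them reached 1 FPKM, and was counted past 2-fold. With 1 library per genotype no test was made. The computation was tested on simulated data. Depth was compared from steps among values up to 0.15 FPKM. The receptors, the 22 gene lists and the alternatives were chosen with earlier results of these data known. Gene lists were matched by exact symbol, rows that join several symbols were not split, and listed genes without a match were left out. Found were 14 of 16 thyroid hormone, 26 of 27 PPARα and 21 of 22 estrogen-related receptor targets and 11 of 12 cardiomyocyte markers. The steroid handling, clock, macrophage and erythroid lists also had unmatched genes.

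Every receptor was accounted for. From other lists the 2 lowest and 2 highest ratios, and target genes higher past 2-fold, could be named. The deiodinases, Ncoa1, Ckm, Lyz2 and genes overlapping a receptor were named after their values were seen. Positions, transcript length and GC content came from GENCODE M21, and promoters from RefSeq, which matched 42 of the 46 receptors with 63 windows. Alternatives were pseudocounts of 0.1 and 1, other filters, other scalings, thresholds of 1.5-fold and 4-fold and, added after seeing the data, centring within GC bins. Software was Python 3.11.15, with pandas 2.3.3 and numpy 2.4.6 for values, scipy 1.17.1 for rank correlations and matplotlib 3.10.9 for figures.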

Additional observations from a re-analysis of the deposited data

How the results depend on the processing

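The 9 receptors past 2-fold kept their directions wherever they were compared, but the alternatives could not have turned them. A pseudocount, a filter or a threshold cannot move a ratio across 1. The scalings shifted log2 ratios by at most 0.12, and the GC bin medians lay between -0.36 and 0.32, while the smallest of the 9 was Esrra at -1.05. Rarb and Nr3c2 dropped out with 1 FPKM required in both libraries or 5 FPKM in either. Of 154 single-receptor values under the pseudocounts, scalings and GC centring, which can change a ratio, 147 stayed on their side of 2-fold. The others were Esrra at -0.98 (log2) with ratios centred on the median of all genes and -0.93 with FPKM scaled to an equal sum in both libraries, Rarg at -0.98 with that scaling, Rarb at -0.93 and Nr3c2 at -0.71 with a pseudocount of 1, and Nr4a3 at 1.04 with equal sums and 1.24 with centring within GC bins. Scaling to equal sums shifted all ratios by 0.12 and left 5 of 23 receptors lower and 3 higher, beside 1724 genes lower and 1787 higher in all. Signs turned with the scaling for Thra (-0.05 to 0.12), Rxrb (-0.04 to 0.13), Nr1d1 (-0.01 to 0.16) and Nr2f6 (-0.12 to 0.05). Centring within GC bins gave -0.33, -0.32, -0.18 and -0.40 for these genes and -0.17 for Rara. Without a filter on low values 40 receptors were compared, and 12 were lower and 3 higher, beside 3182 genes lower and 2504 higher in all. At 4-fold 3 receptors were lower and 0 higher, beside 539 and 453 genes, and at 1.5-fold 9 receptors were lower and 4 higher, beside 3120 genes lower and 2488 higher. The receptors' median log2 ratio was -0.24 with 1 FPKM required in both libraries and -0.21 with 5 FPKM in either. At that 5 FPKM filter 5 of 17 receptors were lower and 2 higher, beside 1176 genes lower and 1002 higher. Gene totals without a filter and at 5 FPKM are not given here, so no shares are stated for these settings. Taking the highest row per symbol changed no receptor value, and the ceiling on low values did not change the relative depth. Leaving out a replicate was not possible with 1 library per genotype. No paired analysis was possible because the result comes from no test. Absolute depth is unknown, so the precision of receptors near 1 FPKM is unknown.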

Other observations

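Several of the lowest receptors lay at steps of the values. The most frequent ratio among low values, 0.722, would be that of an equal number of reads in both libraries if only mapped fragments set the scale, and Hnf4a (0.0185 FPKM in control and 0.0133 in csMed1-/-, ratio 0.718) and Nr5a1 (0.0210 and 0.0152 FPKM, ratio 0.725) stood close to it. Of the 24 receptors below 1 FPKM in both libraries, 18 were above 0 in both, and the highest of these 24 was Esrrg in control (0.917 FPKM) and Nr3c1 in csMed1-/- (0.670 FPKM).

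The 46 receptors summed to 781 FPKM in control and 663 FPKM in csMed1-/-, so the receptors as a class differed less than several of their families did. By class, the COUP-TF, testicular and tailless receptors had a ratio of sums of 0.933, and the REV-ERB and ROR genes 1.02, and the side of 1 turned with the scaling for both.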
